A study of Mus musculus with 4 samples.

Results

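A set of 5 ligands of the tumour necrosis factor (TNF) family, Tnfsf4, Tnfsf18, Tnfsf8, Tnfsf15 and Tnfsf10, were followed across the immune cells of mouse mammary tumours. They were taken from the deposited count table by gene symbol, 5 of its 4099 genes. Tumours of 4T1, a mammary carcinoma line of the BALB/c mouse, had been grown in BALB/c mice from Mif-depleted cells (2 samples, titled sgMif) or from wild-type cells (2 samples, titled CON). Mif encodes macrophage migration inhibitory factor, and its own level is not analysed here. Each sample pooled 3 tumours, and live CD45-positive cells, the leukocytes, were sorted for droplet single-cell RNA sequencing. The age of the mice and the number of clones of the depleted line are not stated in the labels.

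Barcodes carry a numbered suffix that no label ties to a sample. Mif-depleted and wild-type tumours are therefore not compared. Suffixes 1 and 2 are given as 2 sets of cells of unknown group, with no replicate and no test. Suffix 1 held counts for 13162 cells, with 29567302 UMIs (unique molecular identifiers, each a counted transcript molecule) and a median of 1224.5 per cell. Suffix 2 held counts for 3221 of its 11961 annotated cells, with 8578852 UMIs and a median of 1712. The 2 suffixes shared 35 barcode sequences. The genes analysed here lie on chromosomes 1 to 5, as far as their symbols matched the annotation, so counted UMIs are those of these genes and not of the whole transcriptome. A level here is the UMIs of a gene per 10000 counted UMIs, summed over the cells that the authors gave a cell type name, with 95% exact intervals in brackets, which reflect counting error alone.

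TNF ligands are trimeric membrane proteins that signal to receptors on neighbouring cells, and some are also shed. Tnfsf4 encodes OX40L, Tnfsf18 GITRL, Tnfsf8 CD30L and Tnfsf15 TL1A, and their receptors OX40 (Tnfrsf4), GITR (Tnfrsf18), CD30 (Tnfrsf8) and DR3 (Tnfrsf25) costimulate activated and regulatory T cells. Tnfsf10 encodes TRAIL, a ligand that can trigger apoptosis through death receptors and is known from natural killer cells, activated T cells and cells exposed to interferon. In tumours these pairs are studied as signals between dendritic cells, T cells and macrophages.

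Of the 5 genes, 4 lie in neighbouring pairs or beside another ligand gene (GENCODE M21 on GRCm38), and no annotated gene overlaps any of the 5. Tnfsf4 lies on the plus strand of chromosome 1 at 161395409 to 161418410. Tnfsf18 follows it on the same strand at 161494655 to 161505290, after a gap of 76.2 kb. Fasl, the gene of Fas ligand, is the next protein-coding gene, 275 kb further on. Tnfsf15 (chromosome 4, 63727084 to 63745113, minus strand) and Tnfsf8 (63831308 to 63861347, minus strand) are 86.2 kb apart, with 0 protein-coding genes between them. Tnfsf10 stands alone on the plus strand of chromosome 3 at 27317028 to 27342427.

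The start regions of Tnfsf8 and Tnfsf15 are shown because these neighbours had different highest cell types, and that of Tnfsf10 because it was detected in more cells than the other ligands except Tnfsf8. Each runs 5′ to 3′ along the gene's strand from 250 bases before to 50 after its start (RefSeq, GRCm38.p6), at chr4:63861235-63861534 (minus), chr4:63745010-63745309 (minus) and chr3:27316827-27317126 (plus). Capitals mark GGAAA on either strand, the core recognised by NFAT, the factor that calcium signalling activates in stimulated T cells.
Tnfsf8: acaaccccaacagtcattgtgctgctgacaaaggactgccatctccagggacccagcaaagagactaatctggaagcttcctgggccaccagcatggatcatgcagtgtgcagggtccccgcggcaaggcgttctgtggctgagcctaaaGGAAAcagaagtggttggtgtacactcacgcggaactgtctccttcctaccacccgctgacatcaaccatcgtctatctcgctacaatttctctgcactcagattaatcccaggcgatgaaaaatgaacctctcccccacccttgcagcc
Tnfsf15: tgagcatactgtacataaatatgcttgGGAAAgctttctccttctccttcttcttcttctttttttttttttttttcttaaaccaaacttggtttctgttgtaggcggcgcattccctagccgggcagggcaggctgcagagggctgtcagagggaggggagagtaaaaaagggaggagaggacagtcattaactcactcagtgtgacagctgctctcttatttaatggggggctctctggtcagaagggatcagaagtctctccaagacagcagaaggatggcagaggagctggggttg
Tnfsf10: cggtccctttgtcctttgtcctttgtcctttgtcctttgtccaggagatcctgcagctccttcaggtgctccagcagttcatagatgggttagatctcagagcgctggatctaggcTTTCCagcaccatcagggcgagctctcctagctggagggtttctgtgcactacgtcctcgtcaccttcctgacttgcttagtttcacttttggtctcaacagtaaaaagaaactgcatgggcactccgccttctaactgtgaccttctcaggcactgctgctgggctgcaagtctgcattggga
The core was present once in each of these windows, which says little, because 61.3% of the 32851 RefSeq promoters of the same length hold it. Tnfsf18, whose window was searched as well, held it 4 times. It was also the only one of the 4 windows with the TATA box letters TATAAA, which begin 34 bases before its start and occur on either strand in 13.6% of promoters. Searched on both strands, the letters of AP-1 (TGANTCA, in 7.81% of promoters), NF-kB (GGGA, any 4 bases and CC, 20.7%), the interferon-stimulated response element (GAAA, any 2 bases and GAAA, 3.44%) and the gamma-activated site (TTCNNNGAA, 8.30%) had 0 matches in the 4 windows. A GGAAA can overlap the NF-kB and interferon letters. A match is a description of letters, and its absence says only that these letters are not in the window.

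The ligands differed in how many cells carried them. In suffix 1, Tnfsf8 had 1237 UMIs in 573 cells, 4.35% of all, and Tnfsf10 had 522 UMIs in 358 cells, 2.72%. Tnfsf4 had 159 UMIs in 74 cells, Tnfsf15 had 58 in 33 and Tnfsf18 had 20 in 16. In suffix 2 the UMIs were 563 for Tnfsf8, 218 for Tnfsf10, 130 for Tnfsf4, 17 for Tnfsf15 and 4 for Tnfsf18. Statements on Tnfsf15 and Tnfsf18 therefore rest on few molecules.

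Within a suffix, each ligand in each cell type name was compared with the remaining cells (all other cells), and a pair counted as above or below 2-fold when the whole interval of the ratio lay beyond 2-fold. Genes needed 20 UMIs over both sides: all 5 ligands met this in suffix 1, Tnfsf18 with exactly 20, and Tnfsf4, Tnfsf8 and Tnfsf10 met it in suffix 2. In suffix 1, 21 of 115 pairs of a ligand and a name lay above, or 18.3%, against 6.81% of the pairs of all genes. Below 2-fold lay 15 pairs, or 13.0%, against 8.19% of all pairs. In suffix 2, 9 of 69 pairs lay above, or 13.0%, against 4.00%, and 11 lay below, or 15.9%, against 7.07%. The shares of pairs above and below were each higher for the ligands than over all pairs, in both suffixes. No test of that was run. The ligands were chosen with earlier results of these data known, so the difference is a description only. Of the pairs below, neutrophils gave 5 in suffix 1 and 3 in suffix 2. In neutrophils, 71.6% and 60.6% of all genes lay below. Tnfsf18 in fibroblasts is among the pairs above in suffix 1.

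**Figure D1:**
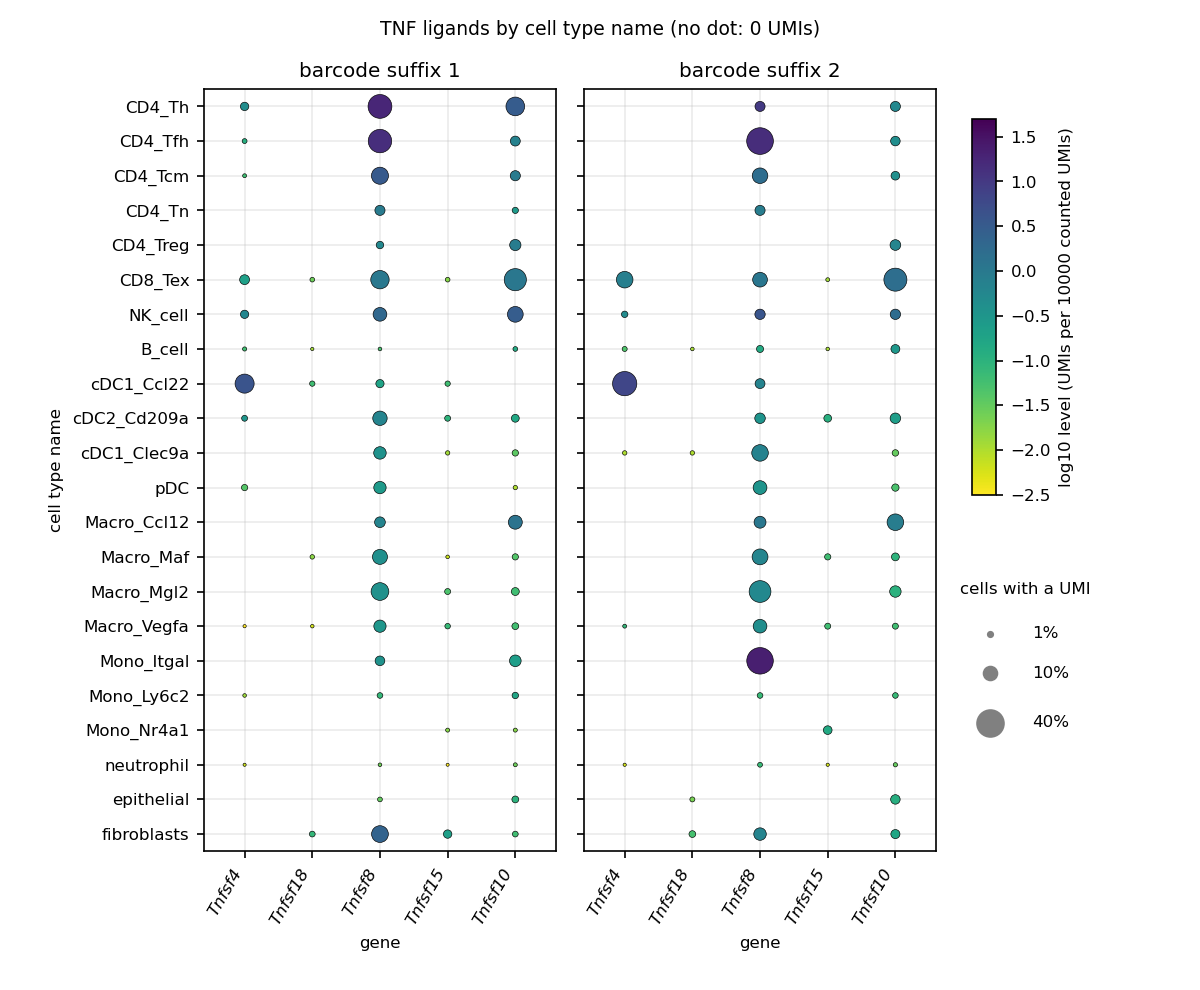
Summed level (colour, log10 of UMIs per 10000 counted UMIs) and share of cells with a UMI (dot area) of the 5 ligands in 22 cell type names, for barcode suffixes 1 and 2. Tnfsf4 is darkest in cDC1_Ccl22 in both suffixes and Tnfsf8 in CD4_Th and CD4_Tfh in suffix 1, and Tnfsf10 has its widest dots in CD8_Tex (27.7% and 30.0% of cells), while the highest Tnfsf8 level of suffix 2 is that of Mono_Itgal, whose 5 cells hold 33 UMIs in 2 cells.

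Tnfsf4, the OX40 ligand, was highest in the dendritic name cDC1_Ccl22. Its level there was 4.02 [3.11, 5.12] in suffix 1 and 6.67 [4.97, 8.77] in suffix 2, against 0.0316 and 0.0929 in all other cells. The log2 ratios were 6.99 [6.51, 7.46] and 6.17 [5.63, 6.69]; above 2-fold lay 7.46% of all genes in this name in suffix 1 and 5.74% in suffix 2. In suffix 1 these cells made 41.5% of all Tnfsf4 UMIs from 0.555% of the counted UMIs, and in suffix 2 39.2% from 0.891%. CD8_Tex made 28.9% of them in suffix 1 and, with 48.5%, the larger part in suffix 2, from 7.32% and 9.23% of the counted UMIs. A Tnfsf4 UMI was found in 18 of 88 cells (20.5%) and in 13 of 39 cells (33.3%), with medians of 1692 and 1801 UMIs per cell. Neutrophils, with medians of 1120 and 976 UMIs, had it in 0.0700% and 0.108% of cells. The cells with the most Tnfsf4 held 15 and 12 of its UMIs, and the levels without them were 3.16 and 5.26, so the pattern did not rest on them. Of 9 dendritic markers 2 were measured, Zbtb46 and Batf3, at a summed level of 11.7 and 7.98 in this name.

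The order below cDC1_Ccl22 was less certain. In suffix 1, NK_cell came next at 0.592 from 3 UMIs, a level below that of cDC1_Ccl22 by a log2 interval of 1.16 to 5.08. CD4_Th followed at 0.450 from 3 UMIs, cDC2_Cd209a at 0.309 from 10 and CD8_Tex at 0.213 from 46, and none of these neighbours differed beyond counting error. Of the 10 UMIs of cDC2_Cd209a, 8 came from 1 cell, and 0 were found in its 34 cells in suffix 2. NK_cell, cDC2_Cd209a and CD8_Tex lay above 2-fold against all other cells in suffix 1, in names where 4.59%, 3.87% and 6.78% of all genes did. In suffix 2, NK_cell had 2 UMIs, both in 1 cell, and Macro_Vegfa 8 UMIs, all in 1 cell. B cells, which can display OX40L when activated, had 10 UMIs in 9 of 1785 cells and 4 UMIs in 4 of 420. Regulatory T cells, which carry the receptor, had 0 Tnfsf4 UMIs in 220 cells of suffix 1 and in 82 of suffix 2, which allows shares of up to 1.36% and 3.66% of cells with a UMI.

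CD8_Tex, the name of exhausted CD8 T cells, held Tnfsf4 in both suffixes but not at the same level. It had 46 UMIs in 27 of 527 cells (5.12%) in suffix 1 and 63 UMIs in 41 of 267 cells (15.4%) in suffix 2. The levels were 0.213 [0.156, 0.284] and 0.796 [0.611, 1.02], with intervals that do not overlap, against 0.0412 and 0.0860 in all other cells. The log2 ratios were 2.37 [1.84, 2.87] and 3.21 [2.69, 3.73], and 6.20% of all genes lay above 2-fold in this name in suffix 2. Below 2-fold lay Macro_Maf and Macro_Mgl2, with 0 UMIs in both suffixes, Macro_Vegfa in suffix 1 and cDC1_Clec9a in suffix 2 with 1 UMI each, and neutrophils in both. In suffix 1, 8.59% of all genes lay below in Macro_Maf, 5.22% in Macro_Mgl2, 7.52% in Macro_Vegfa and 71.6% in neutrophils. In suffix 2 the shares were 7.60% in Macro_Maf, 3.38% in Macro_Mgl2 and 16.8% in cDC1_Clec9a. In neutrophils most genes had such a low ratio, in suffix 2 60.6% of them, and leaving S100a8 and S100a9 out of the counted UMIs moved the log2 ratio of every gene there by 1.21 in suffix 1.

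Tnfsf18, the GITR ligand, was close to the limit of detection. Its 20 UMIs in suffix 1 lay in 6 names: 6 in CD8_Tex, 5 in Macro_Maf, 4 in fibroblasts, 2 in B_cell, 2 in Macro_Vegfa and 1 in cDC1_Ccl22. Scaled to counted UMIs, fibroblasts were highest at 0.0811 [0.0221, 0.208] against 0.00550 in all other cells. The log2 ratio was 3.88 [1.84, 5.51] from 4 UMIs in 2 cells. Tnfsf18 met the minimum of 20 UMIs only with these 4 included, so its place above 2-fold in fibroblasts is no separate finding. Above 2-fold in fibroblasts lay 17.7% of all genes. The interval between fibroblasts and cDC1_Ccl22, the next name, ran from -2.93 to 6.03 on the log2 scale, so the order of these names is open to counting error. The 5712 neutrophils had 0 UMIs. In suffix 2, fibroblasts, epithelial, B_cell and cDC1_Clec9a had 1 UMI each. Its neighbour Tnfsf4 had 0 UMIs in fibroblasts in both suffixes.

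Tnfsf8, the CD30 ligand, was highest in helper CD4 T cells in suffix 1. Its level there was 17.9 [14.8, 21.4] in CD4_Th (119 UMIs in 18 of 56 cells) and 14.1 [11.8, 16.9] in CD4_Tfh (123 UMIs in 36 of 116 cells), the name of follicular helper T cells. All other cells stood at 0.379 and 0.378, and the log2 ratios were 5.56 [5.27, 5.83] and 5.23 [4.95, 5.50]. Above 2-fold in these names lay 5.63% and 7.13% of all genes. The interval between the 2 names ran from -0.04 to 0.71 on the log2 scale, so they did not differ beyond counting error. CD4_Tcm, the central memory name, was next at 3.30 [2.47, 4.32] with 53 UMIs in 42 of 258 cells, below CD4_Tfh by 1.62 to 2.59 on the log2 scale. Its log2 ratio to all other cells was 3.04 [2.61, 3.43], where 10.3% of all genes lay above. In suffix 2, CD4_Tcm stood at 1.63 from 8 UMIs, and its log2 ratio of 1.32 [0.10, 2.31] no longer lay wholly above 2-fold.

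In suffix 2, CD4_Tfh had a similar level and CD4_Th rested on 1 cell. CD4_Tfh stood at 14.9 [11.6, 18.9], from 69 UMIs in 17 of 42 cells, against 0.579 in all other cells, a log2 ratio of 4.69 [4.30, 5.06] in a name where 3.67% of all genes lay above. CD4_Th had 54 UMIs in 3 of 56 cells, 51 of them in a cell of 1094 counted UMIs. That cell held 1 T cell marker UMI and 0 Tnfrsf4 UMIs. The level of CD4_Th was 9.76 [7.33, 12.7] with that cell and 0.553 without it, and its log2 ratio was 4.03 with it, where 3.70% of all genes lay above. Mono_Itgal had 5 cells in suffix 2, and 2 of them held 33 Tnfsf8 UMIs, 21 and 12, together with 9 T cell marker UMIs each. Its level of 22.4 [15.4, 31.5] was the highest in suffix 2 and compares with 0.383 from 41 cells in suffix 1. Above 2-fold in Mono_Itgal in suffix 2 lay 1.06% of all genes.

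Other lymphocytes held less Tnfsf8. NK_cell stood at 1.97 (10 UMIs) in suffix 1 and 3.86 (16 UMIs in 3 cells) in suffix 2, above 2-fold in both, and in suffix 2 3.93% of all genes did so. Among those 3, a cell of 184 counted UMIs held 8. CD8_Tex stood at 1.04 [0.913, 1.19] and 1.11 [0.891, 1.37], with 226 UMIs in 100 cells and 88 UMIs in 32 cells. Relative to all other cells this was a log2 ratio of 1.50 [1.29, 1.71] in suffix 1, and of 0.87 [0.52, 1.20] in suffix 2, where the interval reached below 2-fold. Naive CD4_Tn cells stood at 0.929 and 0.849, and regulatory T cells at 0.542 in suffix 1, with 0 UMIs in 82 cells in suffix 2. Tnfsf8 lay below 2-fold in suffix 1 in Mono_Ly6c2 (6 UMIs), B_cell (9), epithelial (4), neutrophils (29) and Mono_Nr4a1 (0). Of all genes, 5.50%, 13.1%, 10.8%, 71.6% and 6.27% did so in these names.

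Fibroblasts were the reported name outside the lymphocytes with the most Tnfsf8 in suffix 1. Their level was 2.43 [2.02, 2.91] against 0.384 in all other cells, a log2 ratio of 2.66 [2.38, 2.94], from 120 UMIs in 22 of 140 cells. Its 3 highest cells held 37, 34 and 14 of these UMIs. These 3 cells had 0 UMIs of the 4 measured T cell markers and 860, 648 and 867 UMIs of the 4 measured fibroblast markers. In suffix 2 the level was 0.646 [0.334, 1.13] from 12 UMIs in 4 of 47 cells, against 0.656 in all other cells, and the log2 ratio was -0.02 [-0.99, 0.79]. The fibroblast value of suffix 1 was thus not seen in suffix 2. A UMI of Ptprc, the CD45 gene, was found in 29.3% and 29.8% of the cells named fibroblasts, although the sort selected CD45.

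**Figure D2:**
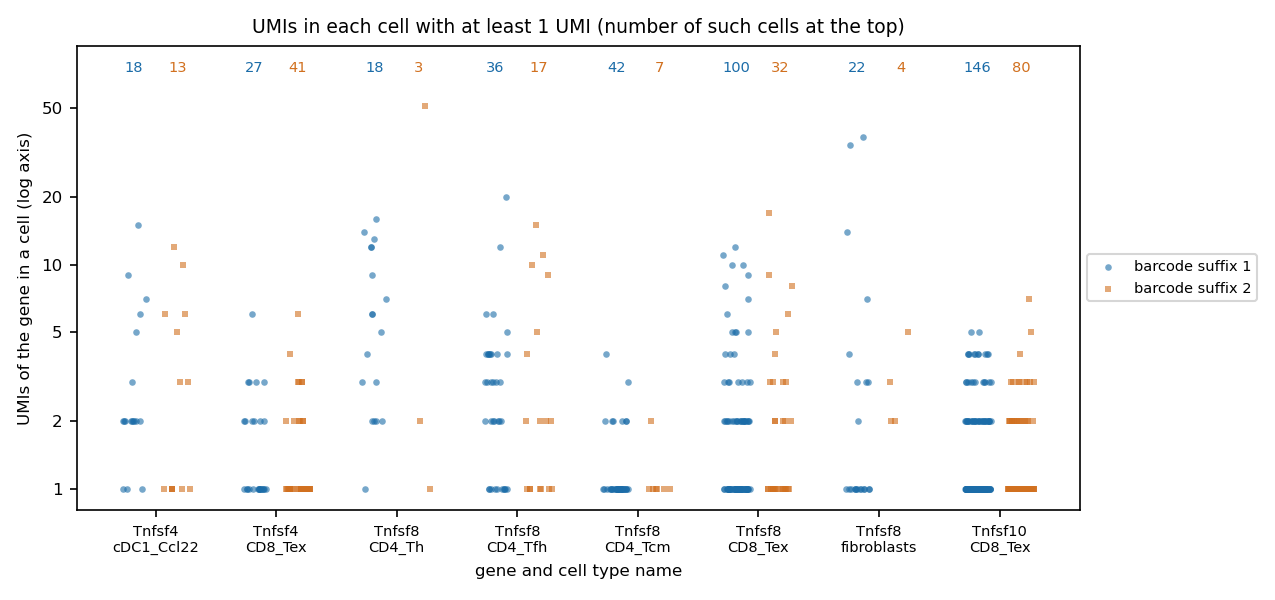
UMIs of a ligand in each cell that had at least 1 (log axis), for 8 pairs of a ligand and a cell type name in suffix 1 (circles) and suffix 2 (squares), with the number of such cells at the top. In CD4_Th of suffix 2 a cell with 51 Tnfsf8 UMIs stands far above the other 2 cells, and in fibroblasts of suffix 1 cells with 37 and 34 stand above the rest.

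The share of cells with a Tnfsf8 UMI depended on how many UMIs a cell had. Macro_Mgl2 cells, with a median of 6227 UMIs, had Tnfsf8 in 17.6%, and Macro_Maf cells, with a median of 3652, in 12.5%. After every cell was thinned to 500 UMIs, these shares were 2.75% and 1.52%. In CD4_Tfh, with a median of 683 UMIs, the share was 31.0% before and 30.2% after thinning, which kept 96 of 116 cells, and in CD4_Th it was 32.1% before and 25.9% after. Neutrophils had a Tnfsf8 UMI in 0.263% of cells and Mono_Ly6c2, with a median of 1808 UMIs, in 1.36%. The summed levels of Macro_Maf and Macro_Mgl2 were 0.407 and 0.396 in suffix 1 and 0.606 and 0.542 in suffix 2, all within 2-fold of all other cells.

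Tnfsf15, the DR3 ligand, was detected mainly outside the lymphocytes. In suffix 1 fibroblasts were highest at 0.223 [0.111, 0.399] against 0.0162 in all other cells, a log2 ratio of 3.79 [2.69, 4.75]. Of their 11 UMIs, 7 came from 1 cell, without which the level was 0.0828, and the 47 fibroblasts of suffix 2 had 0. Macro_Vegfa held the most UMIs, 24 in 11 cells of suffix 1 and 6 in 4 cells of suffix 2. Its level was 0.0734 [0.0471, 0.109] against 0.0129 in all other cells in suffix 1, a log2 ratio of 2.51 [1.69, 3.30], in a name where 2.65% of all genes lay above 2-fold. In suffix 2 it stood at 0.0617 [0.0226, 0.134] and Macro_Maf at 0.0606 (5 UMIs), while Mono_Nr4a1 was highest at 0.146 from 1 UMI, and the 17 UMIs of suffix 2 were too few for a ratio to count. The 6 names of CD4 T and natural killer cells had 0 Tnfsf15 UMIs in both suffixes. In suffix 1 the upper limits of their log2 ratios to all other cells ran from 2.67 (CD4_Tn) to 5.26 (NK_cell). Levels above 2-fold are thus not excluded there. CD8_Tex stood at 0.0185 from 4 UMIs in suffix 1, with a log2 ratio of -0.09 [-2.02, 1.35]. Neutrophils lay below 2-fold in suffix 1 with 2 UMIs. In suffix 1 Tnfsf8, the neighbour of Tnfsf15, was highest in CD4 T cells, so the genes of this pair did not share a highest name. The lead of fibroblasts over cDC2_Cd209a, the next name for Tnfsf15, lay within counting error (log2 interval -0.65 to 3.75). Both genes lay above 2-fold in fibroblasts in suffix 1, where 17.7% of all genes did.

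Tnfsf10, the TRAIL gene, was detected over cytotoxic and CD4 T cells, natural killer cells and a macrophage name. In CD8_Tex it had 237 UMIs in 146 of 527 cells (27.7%) in suffix 1 and 125 UMIs in 80 of 267 cells (30.0%) in suffix 2. The levels were 1.10 [0.961, 1.24] and 1.58 [1.31, 1.88] against 0.104 and 0.119 in all other cells, and the log2 ratios 3.40 [3.14, 3.65] and 3.72 [3.33, 4.13]. CD8_Tex held 45.4% and 57.3% of all Tnfsf10 UMIs. No cell of this name had more than 7, so the level was spread over many cells. Thinned to 500 UMIs, 8.84% and 10.3% of its cells had a UMI. The name pDC, with a median of 5101 UMIs, had it in 0.592% of cells in suffix 1, and neutrophils in 0.403%.

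Per counted UMI, CD4_Th and NK_cell were higher in suffix 1. CD4_Th stood at 3.15 [1.95, 4.82] from 21 UMIs and NK_cell at 2.96 [1.66, 4.88] from 15, with log2 ratios to all other cells of 4.21 and 4.11, and they did not differ beyond counting error (log2 interval -0.93 to 1.15). Macro_Ccl12, a macrophage name, stood at 1.25 [0.786, 1.90] from 22 UMIs in 14 of 131 cells, a log2 ratio of 2.88 [2.20, 3.50], where 2.65% of all genes lay above 2-fold. CD4_Tcm and CD4_Treg were above 2-fold at 0.935 and 0.887 in suffix 1. CD4_Tfh stood at 0.690 from 6 UMIs, with an interval of the ratio that reached below 2-fold. In suffix 2, NK_cell stood at 1.69 with 7 UMIs, 5 of them in 1 cell, CD4_Th at 0.542 with 3 and Macro_Ccl12 at 0.866 with 4. CD4_Treg stood at 0.604 with 5 UMIs and CD4_Tcm at 0.407 with 2. Of these names, NK_cell alone lay above 2-fold in suffix 2, and its level was 0.497 without that cell. The intervals of the ratios of CD4_Th, Macro_Ccl12, CD4_Treg and CD4_Tcm all reached below 2-fold there.

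Tnfsf10 lay below 2-fold in some myeloid names. In suffix 1 Macro_Vegfa stood at 0.0581, Macro_Maf at 0.0441, neutrophils at 0.0278 and pDC at 0.0104, all below 2-fold, as 2.68% of all genes were in pDC. In Mono_Ly6c2, cDC2_Cd209a (0.154) and Mono_Itgal (0.230) the interval of the ratio to all other cells included 1. In suffix 2, Macro_Vegfa, neutrophils and cDC1_Clec9a lay below, and Macro_Maf and pDC, with log2 ratios of -1.48 [-2.71, -0.48] and -2.36 [-5.41, -0.49], did not. Of all genes, 8.29% lay below in Macro_Vegfa, 60.6% in neutrophils and 16.8% in cDC1_Clec9a in suffix 2. In cDC1_Ccl22, the name with the highest Tnfsf4, 0 of 88 cells in suffix 1 and 0 of 39 in suffix 2 had a Tnfsf10 UMI, which allows shares of up to 3.41% and 7.69%. B_cell stood at 0.139 and 0.284, from 23 and 24 UMIs, within 2-fold of all other cells in both suffixes. Of the macrophage names reported here, Macro_Ccl12 lay above 2-fold, in suffix 1. Cells named pDC and cDC1_Clec9a had levels of the 4 measured osteoclast markers of 219.7 and 873 in suffix 1, against 4.45 in cDC1_Ccl22, so these names are used here as labels only.

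**Figure D3:**
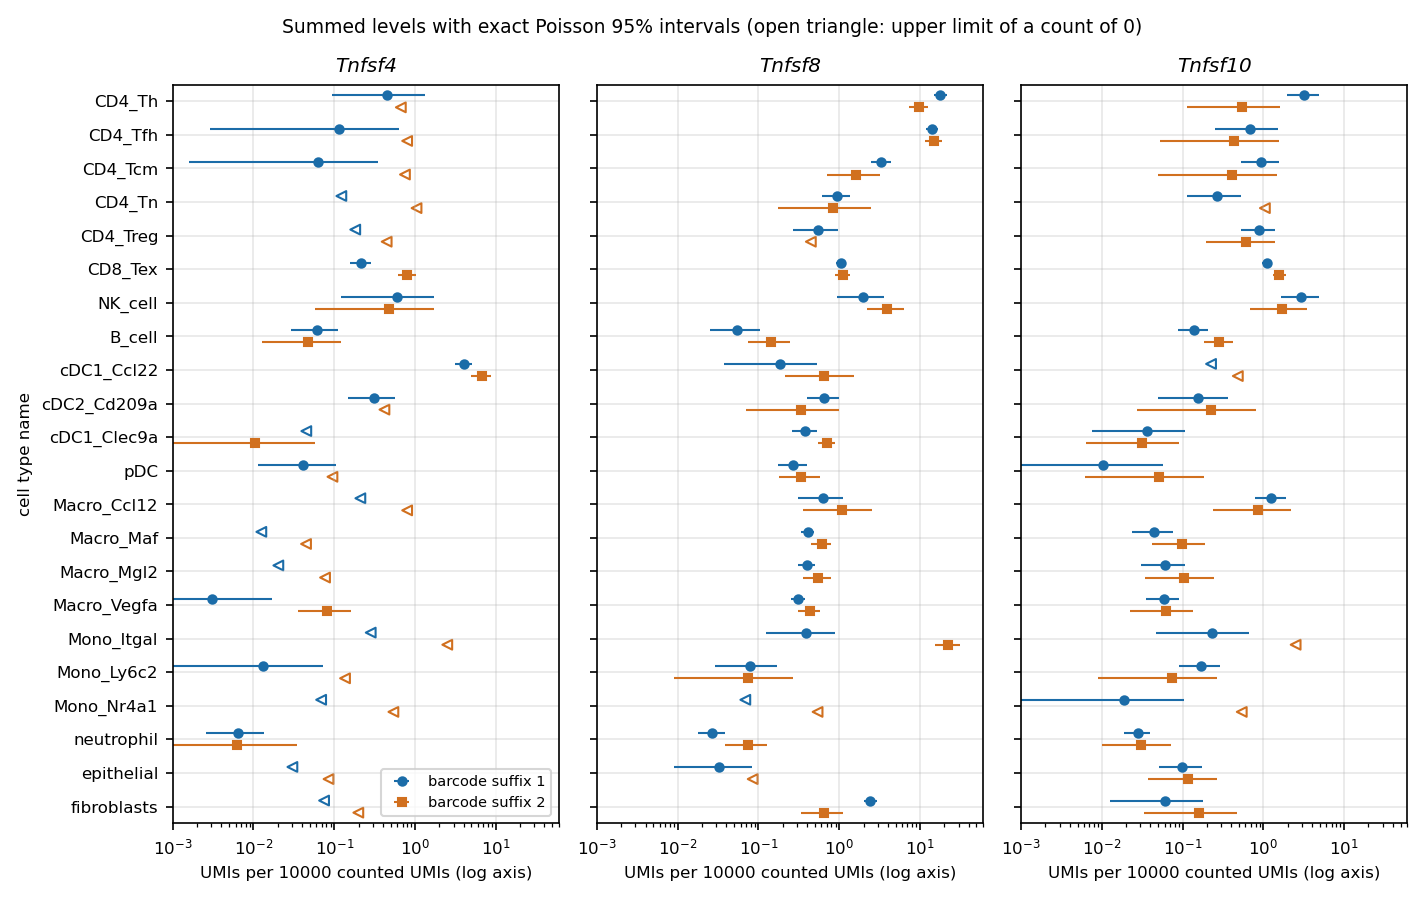
Summed levels of Tnfsf4, Tnfsf8 and Tnfsf10 (UMIs per 10000 counted UMIs, log axis) in 22 cell type names, with exact Poisson 95% intervals, for suffix 1 (circles) and suffix 2 (squares). Open triangles mark the upper limit where 0 UMIs were counted. For Tnfsf4 the cDC1_Ccl22 levels of 4.02 and 6.67 lie above all other names, and for Tnfsf8 the suffixes are far apart in Mono_Itgal (0.383 and 22.4).

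The cells named CD8_Tex were mixed in their markers, which touches 3 of the ligands. The summed level of the 4 measured T cell markers (Cd247, Cd28, Icos and Lef1, of 9 on the list) was 13.6 and 21.0 in this name, against 40.1 to 75.5 in the CD4 names of suffix 1. The 5 measured macrophage markers stood at 215 and 105. When the cells were divided by their UMIs of C1qa, C1qb and C1qc, complement genes made by macrophages, 106 cells of suffix 1 had 0, 168 had 1 to 4 and 253 had 5 or more. In suffix 2 these numbers were 91, 124 and 52. The sets also differed in depth, with medians of 1169.5, 1616.5 and 5447 UMIs per cell in suffix 1. In suffix 2 the medians were 1509, 1682.5 and 5914. The part of depth in the differences between the sets was not tested. Tnfsf10 stood at 3.39, 2.63 and 0.453 in these 3 sets of suffix 1, and at 1.84, 2.35 and 0.874 in suffix 2. Tnfsf4 stood at 0.582, 0.624 and 0.0692, and at 1.15, 1.14 and 0.367. Both ligands were lower in the cells with 5 or more C1q UMIs, as were the T cell markers (24.6, 25.9 and 9.32, and 27.3, 27.8 and 12.8).

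Tnfsf8 did not follow that pattern. It stood at 1.90, 0.936 and 0.969 in the sets of suffix 1 and at 1.44, 0.532 and 1.38 in those of suffix 2. Without the cells with 5 or more C1q UMIs, the log2 ratios of CD8_Tex to all other cells in suffix 1 were 4.79 for Tnfsf10, 3.89 for Tnfsf4 and 1.77 for Tnfsf8. The levels of Tnfsf4 with 0 C1q UMIs, 0.582 [0.290, 1.04] and 1.15 [0.702, 1.78], overlapped between the suffixes, from 11 and 20 UMIs. With 1 to 4 C1q UMIs the intervals overlapped as well. With 5 or more they did not, at 0.0692 [0.0345, 0.124] in suffix 1 and 0.367 [0.195, 0.627] in suffix 2. In each set the Tnfsf4 level was higher in suffix 2. The part of macrophage RNA in the Tnfsf8 level of CD8_Tex was not tested.

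**Figure D4:**
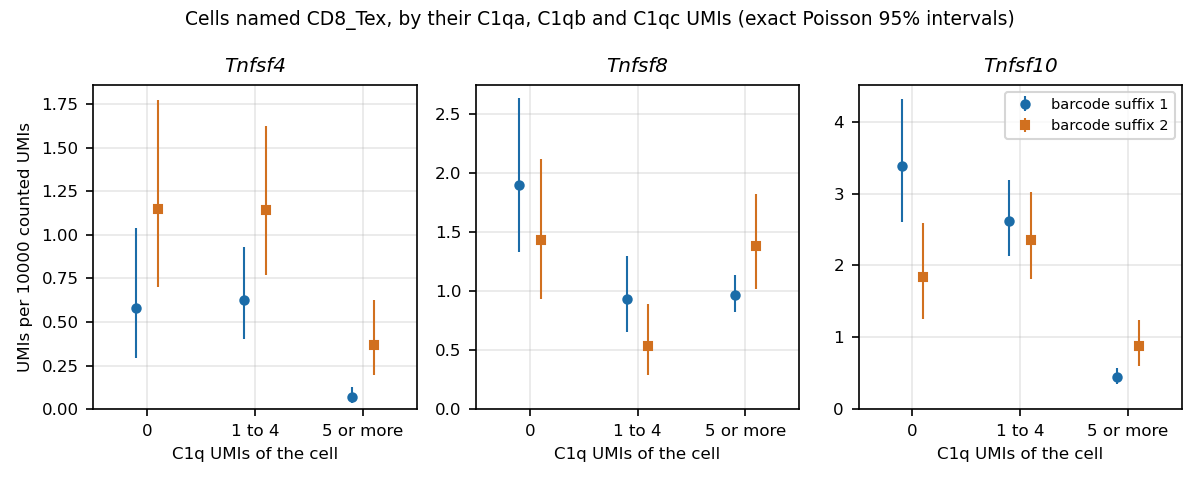
Levels of Tnfsf4, Tnfsf8 and Tnfsf10 (UMIs per 10000 counted UMIs) in cells named CD8_Tex, divided by the C1qa, C1qb and C1qc UMIs of the cell, with exact Poisson 95% intervals, for suffix 1 (circles) and suffix 2 (squares). Tnfsf10 and Tnfsf4 are lowest in cells with 5 or more C1q UMIs in both suffixes, and Tnfsf8 is not.

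Within CD8_Tex, cells with a Tnfsf4 UMI differed from cells without it in other genes. The 27 cells with and the 500 without in suffix 1 had medians of 3132 and 3293 UMIs, and the 41 and 226 of suffix 2 had 1874 and 1962.5. Xcl1, the lymphotactin gene that attracts cross-presenting dendritic cells, stood at 23.6 in cells with and 6.64 in cells without Tnfsf4 in suffix 1, and at 18.7 and 4.02 in suffix 2. Tnfrsf9, the gene of the costimulatory receptor 4-1BB, stood at 20.0 and 6.15, and at 28.3 and 12.3. Pdcd1, the gene of the checkpoint receptor PD-1, which was added to the genes looked at after the data were seen, stood at 8.49 and 4.12, and at 16.7 and 4.88. All 3 genes were thus higher in cells with Tnfsf4 in both suffixes, beyond counting error. Macrophage markers were lower in these cells, at 96.0 and 223, and at 50.5 and 114. Fasl stood at 0.857 and 0.816 in suffix 1, which did not differ beyond counting error, and at 3.24 and 1.33 in suffix 2. These comparisons run over the whole name, whose cells were mixed in their markers. Tnfrsf9 stood at 3.96 with 5 or more C1q UMIs and 16.1 with 0 in suffix 1, and at 7.08 and 16.9 in suffix 2. No comparison was made within the cells with few C1q UMIs, so the part of this mixture was not tested.

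Cells with Tnfsf8 in CD8_Tex differed in other directions. They were deeper, with medians of 5306.5 UMIs in cells with and 2713 in cells without in suffix 1, and 4220 and 1804 in suffix 2. Pdcd1 stood at 2.71 in cells with and 5.03 in cells without Tnfsf8 in suffix 1 and at 0.938 and 8.16 in suffix 2, and macrophage markers at 267 and 195, and at 186 and 81.1. In these cells Pdcd1 was lower and the macrophage markers higher, the reverse of the cells with Tnfsf4. Cells with Tnfsf10 had Xcl1 at 13.6, against 5.08 in cells without, in suffix 1 and at 10.6 against 3.57 in suffix 2. Their Pdcd1 was 7.93 against 2.85 in suffix 1 but 6.51 against 6.50 in suffix 2. The comparisons for Tnfsf8 and Tnfsf10 also run over the whole name, and the part of its mixed markers was not tested.

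In helper T cells of suffix 1, cells with Tnfsf8 carried more of the OX40 receptor gene. In CD4_Th, Tnfrsf4 stood at 28.5 in the 18 cells with Tnfsf8 and 5.60 in the 38 without, Tnfrsf9 at 31.7 and 8.67 and Tnfrsf18 at 35.6 and 14.0. In CD4_Tfh, Tnfrsf4 stood at 24.5 and 12.5 in suffix 1, but at 10.8 and 16.0 in suffix 2, where the interval of the ratio included 1. Only 3 cells of CD4_Th had Tnfsf8 in suffix 2, so that name gave no value there. Among the 22 fibroblasts with Tnfsf8, fibroblast markers stood at 939, against 661 in the 118 without, and T cell markers at 0.647 against 0.762.

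Cells that held a pair of these ligands were few. In suffix 1, 64 cells held UMIs of both Tnfsf8 and Tnfsf10, 11.2% of the cells with Tnfsf8 and 17.9% of those with Tnfsf10, and in suffix 2 there were 26. Tnfsf4 and Tnfsf10 met in 20 cells (27.0% of those with Tnfsf4) and in 14, and Tnfsf4 and Tnfsf8 in 13 and 2. Tnfsf4 and Tnfsf18, neighbours on chromosome 1, met in 3 cells and in 0. These counts rise with the depth of a cell and are a description.

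The genes most like each ligand were sought as a description, over names that share a suffix. Over the 22 names with 50 or more cells in suffix 1, they were found among 3082 genes by Pearson's r of log2(level + 0.1). For Tnfsf4 they were Nabp1 (r = 0.80 in suffix 1, 0.39 over the same names in suffix 2), Traf1, an adaptor of TNF receptors (0.78, 0.54), and Insm1 (0.78, 0.82), a zinc-finger factor highest in cDC1_Ccl22 at 3.05. For Tnfsf8 they were Gm12840 (0.81, 0.55), Zer1 (0.77, 0.54) and Zap70, a kinase of T cell receptor signalling (0.76, 0.61). For Tnfsf10 they were Fasl (0.83, 0.65), Zap70 (0.82, 0.62) and Ttc39b (0.81, 0.70). Every r except that of Insm1 was lower in suffix 2, where 15 names had 50 or more cells. Because the genes were picked by their r in suffix 1, a lower r in suffix 2 is no separate finding.

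Of the receptors on a list of 23, 9 were measured, and CD4_Treg, the regulatory T cell name, led 5 of them in suffix 1. Tnfrsf4, the receptor of Tnfsf4, stood at 38.3 [35.6, 41.1] in CD4_Treg in suffix 1 and 37.5 [33.5, 42.0] in suffix 2, against 0.641 and 1.01 in all other cells. CD4_Tfh followed at 16.7 and 13.6, and CD4_Th at 16.2 in suffix 1 but 0.904 in suffix 2. Tnfrsf18, the receptor of Tnfsf18, stood in CD4_Treg at 36.4 and 34.8 and in CD4_Th at 24.0 and 11.6. Both are also on the marker list of regulatory T cells, so their level there is no separate finding. Tnfrsf9 stood in CD4_Treg at 35.3 and 36.2, and Tnfrsf1b, which encodes TNF receptor 2, at 14.8 and 12.6.

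Receptors of the other ligands were sparser. Tnfrsf8, the receptor of Tnfsf8, had 75 UMIs in suffix 1 and 15 in suffix 2, with 26 in CD8_Tex (0.120 [0.0785, 0.176]) and 10 in CD4_Treg (0.493 [0.236, 0.906]) in suffix 1, both above 2-fold. Tnfrsf25, the receptor of Tnfsf15, stood at 2.70 [1.60, 4.27] and 3.44 [2.07, 5.36] in CD4_Th, at 1.72 and 1.45 in CD4_Treg and at 1.62 and 2.03 in CD4_Tcm. The death receptor of Tnfsf10 was not analysed here. Tnfsf15 and its receptor were thus highest in different names in suffix 1, fibroblasts for the ligand and CD4_Th for the receptor. For both genes the lead over the next name lay within counting error. Tnfsf4 and Tnfrsf4 overlapped: although the ligand was highest in cDC1_Ccl22 and the receptor in CD4_Treg, both genes lay above 2-fold in cDC1_Ccl22 and in CD8_Tex in both suffixes. CD8_Tex held 34.7% and 39.5% of the Tnfrsf4 UMIs.

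Over the 9 receptors, CD4_Treg had 6 above and 2 below 2-fold in suffix 1, with a median log2 ratio of 4.01, where 9.07% and 5.25% of all genes lay above and below and the median of all genes was 0.11. The 6 above were Tnfrsf4, Tnfrsf18, Tnfrsf8, Tnfrsf25, Tnfrsf9 and Tnfrsf1b, and the 2 below were Tnfrsf11a and Cd40. In suffix 2, 5 of the 8 receptors with enough UMIs lay above in CD4_Treg, where 5.05% of all genes did. These were the same receptors without Tnfrsf8. Tnfrsf4 and Tnfrsf18 are on the marker list of regulatory T cells, so their part in these counts and in the median is no separate finding. In cDC1_Ccl22, 5 of 9 lay above in suffix 1, Tnfrsf4, Tnfrsf18, Tnfrsf9, Tnfrsf11a and Cd40, and 3 of 8 in suffix 2, Tnfrsf4, Tnfrsf11a and Cd40. CD8_Tex had the same counts, with Tnfrsf4, Tnfrsf18, Tnfrsf8, Tnfrsf25 and Tnfrsf9 in suffix 1 and Tnfrsf4, Tnfrsf18 and Tnfrsf9 in suffix 2. CD4_Th had 4 of 9 and 2 of 8. In suffix 1, 7.46% of all genes lay above in cDC1_Ccl22, 6.78% in CD8_Tex and 5.63% in CD4_Th. In suffix 2 these shares were 5.74%, 6.20% and 3.70%. Cd40, the receptor by which T cells license dendritic cells, stood in cDC1_Ccl22 at 10.7 and 7.72 and was highest in this name in both suffixes. Tnfrsf11a, which encodes RANK, the receptor for the osteoclast factor RANKL, stood at 5.12 and 4.84 in cDC1_Ccl22, beside 6.08 and 6.67 in cDC1_Clec9a, from which it did not differ beyond counting error in either suffix. Tnfrsf14, the receptor gene HVEM, had 0 names above 2-fold among the 22 reported in either suffix.

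**Figure D5:**
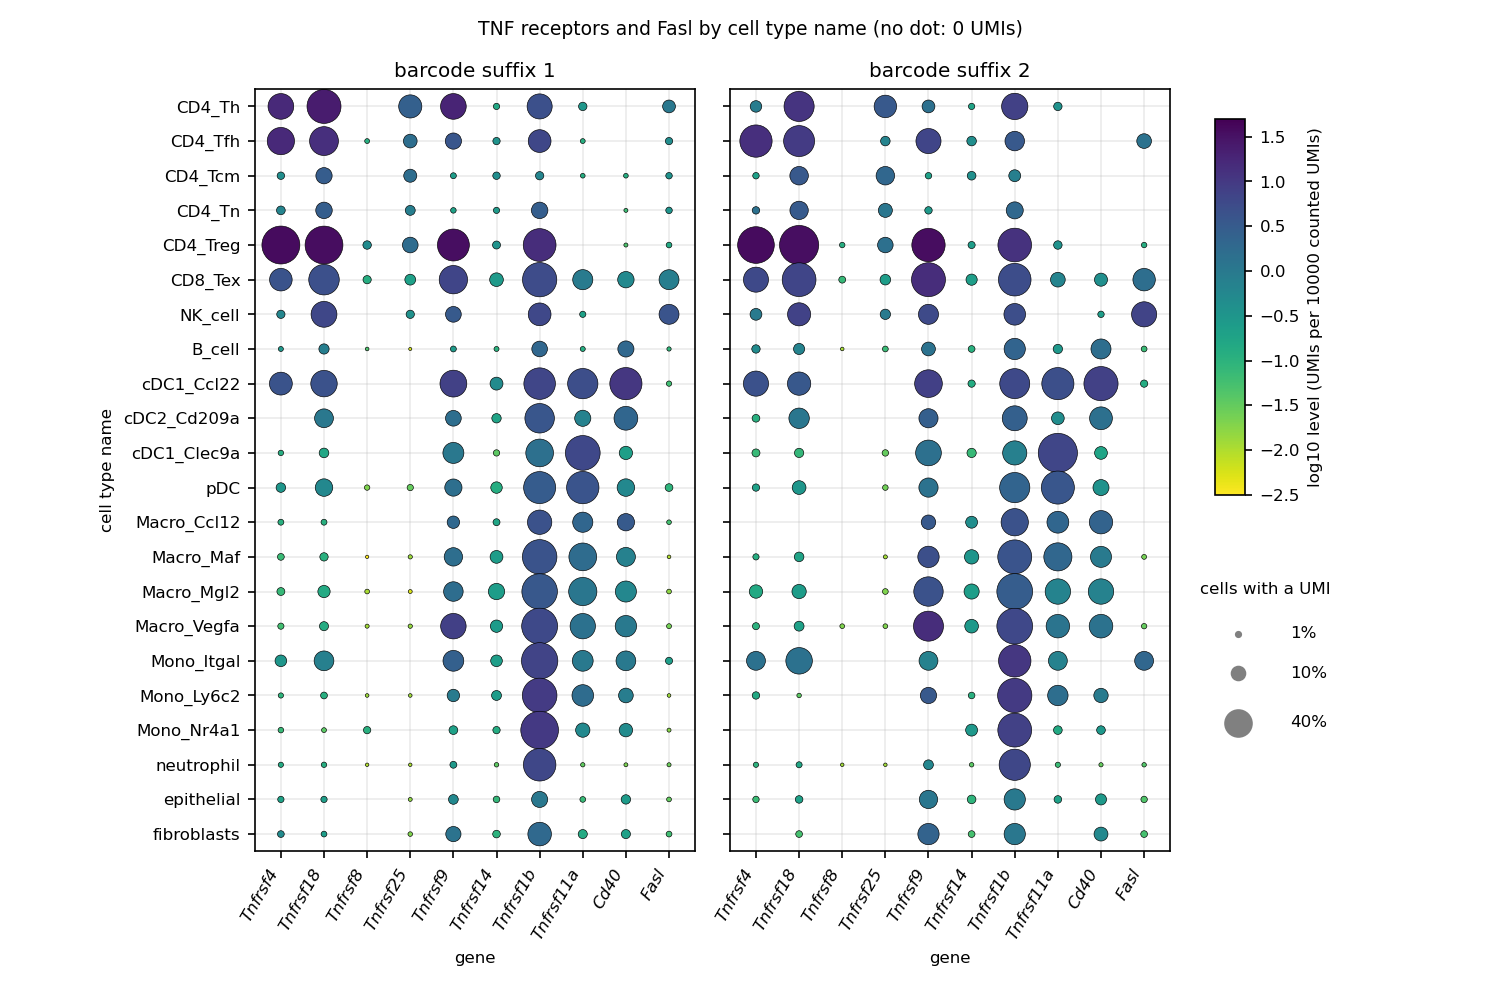
Summed level (colour, log10 of UMIs per 10000 counted UMIs) and share of cells with a UMI (dot area) of 9 TNF receptors and of Fasl in 22 cell type names, for barcode suffixes 1 and 2. Tnfrsf4, Tnfrsf18 and Tnfrsf9 are darkest in CD4_Treg (38.3, 36.4 and 35.3 in suffix 1), Cd40 in cDC1_Ccl22 (10.7) and Fasl in NK_cell (4.14).

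Of 12 other TNF ligands on the list, Fasl alone was among the genes analysed here. It stood at 4.14 [2.56, 6.33] in NK_cell in suffix 1 and 7.23 [4.88, 10.3] in suffix 2, and at 0.818 and 1.59 in CD8_Tex. CD8_Tex held 52.1% and 66.0% of its UMIs, and both names also lay above 2-fold for Tnfsf10. In cDC1_Ccl22 it had 1 UMI in each suffix.

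Of 25 signalling genes on the list, 11 were measured. In suffix 1, 5 lay above in CD4_Treg, 4 in cDC1_Ccl22, 2 in CD4_Th, 1 in CD4_Tfh and 0 in CD8_Tex, in names where 9.07%, 7.46%, 5.63%, 7.13% and 6.78% of all genes did. In suffix 2 the counts were 2 in CD4_Treg, 3 in cDC1_Ccl22, 1 in CD4_Th, 0 in CD4_Tfh and 0 in CD8_Tex, where 5.05%, 5.74%, 3.70%, 3.67% and 6.20% of all genes did. In cDC1_Ccl22 the genes above in suffix 1 were Traf1 at 44.6 [41.4, 47.9] against 2.83 in all other cells, Cflar, an inhibitor of caspase-8, at 16.4 against 4.56, Tank, and Nfkb1, a subunit of NF-kB, at 20.4 against 6.13. In suffix 2, Traf1 stood there at 33.1 and Nfkb1 at 31.4, both above 2-fold, and Cflar at 11.6, which was not. In CD4_Th, Nfkb1 stood at 26.6 and 29.7 and Traf1 at 14.9 in suffix 1. The medians of the 11 log2 ratios in suffix 1 were 1.44 in cDC1_Ccl22 and 0.41 in CD8_Tex, beside 0.08 and 0.47 over all genes.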

How the data were processed

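Live CD45-positive tumour cells of 4 samples had been profiled by droplet single-cell RNA sequencing. Per the submitters' processing notes, Cell Ranger, Seurat, GRCm38 and mm10 were used; the notes list no role or version for them. The authors deposited raw UMI counts per gene and cell, untransformed, and a table that gives each barcode a cell type name. The count table held 4099 genes here, and 1 incomplete row was left out. The 4067 rows whose symbols matched the annotation lie on chromosomes 1 to 5 (186 of them on chromosome 5), so counted UMIs, depths and list sizes refer to these genes, and others are not analysed here. Cells were taken as the authors kept and named them, with no further filter and no doublet caller; whether doublets had been removed is not stated. No doublet rate is therefore known. Barcode suffixes 1 and 2 had counts, and since no label ties them to samples, each was described apart, with no comparison of Mif-depleted and wild-type tumours, no test and no SD. Results of 1 of the 23 cell type names are not reported here; its cells stay among all other cells and in counts over all pairs.

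UMIs were summed per name and suffix and divided by the counted UMIs, times 10000, with exact Poisson intervals at 95%. Ratios to all other cells of a suffix carry exact conditional binomial intervals and count beyond 2-fold when the interval lies wholly above 2 or below 0.5, in genes with 20 UMIs or more; 3925 genes met this in suffix 1 and 3486 in suffix 2. Shares of cells carry exact Clopper-Pearson intervals, a count of 0 was given the limit of 3 counts, and thinning drew 500 UMIs per cell, leaving out shallower cells. PCR and droplet effects lie outside these intervals. The genes named are the 5 ligands, the measured receptors and other ligands, up to 6 signalling genes by the largest ratio where a ligand is highest, markers on lists, and the 3 genes most like each of the 3 ligands with most UMIs. Members and lists were chosen with earlier results of these data known. The alternatives were suffix 2, UMIs per cell, the mean of cell shares, other count minimums, cells of 500 UMIs or more, counts without S100a8 and S100a9, thinning, and leaving out the top cell or the CD8_Tex cells with 5 or more C1q UMIs. Gene positions came from GENCODE M21, in which 32 symbols had no match, and promoters from RefSeq for 4 of the 5 ligands. Figures were drawn with matplotlib 3.10.9, intervals came from scipy 1.17.1, and tables were handled with pandas 2.3.3 and numpy 2.4.6 under Python 3.11.15. The ratio intervals were tested on simulated Poisson counts, which have the spread that the intervals assume. That run cannot show how the intervals hold where the UMIs of a gene are gathered in few cells.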

Additional observations from a re-analysis of the deposited data

How the results depend on the processing

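No paired analysis was possible because no replicate number is tied to a barcode suffix and no result comes from a test between groups. The highest name was the same in suffix 2 for 2 of the 5 ligands and with the mean of cell shares for 2. Suffix 2 held 9 pairs of a ligand and a name above 2-fold, against 21 in suffix 1. For receptors, signalling genes and Fasl together it held 41 pairs, against 63. The highest and next names of suffix 1 differed beyond counting error for 1 ligand, for 2 in suffix 2 and for 2 in UMIs per cell. In suffix 2 Tnfsf8 was among these in the reverse direction. CD4_Th lay below CD4_Tfh there, with a log2 ratio of -0.61 [-1.15, -0.08]. With thinning, 12 pairs had a UMI in 5% of cells or more, against 26. The log2 ratio of Tnfsf8 in fibroblasts was -0.024 in suffix 2 and 2.66 in suffix 1. The cause of these differences was not tested, except that thinning removes UMIs by construction and suffix 2 has fewer cells. The other alternatives gave between 16 and 21 pairs above 2-fold. Leaving out top cells or C1q-rich cells was chosen after seeing the data. Of the 96 alternatives over 19 named ratios that gave a value, 58 stayed within their interval, 37 moved and 1 reversed; a further 2 gave no value because suffix 2 had 0 UMIs. UMIs per cell moved every log2 ratio of a name by -1.87 (CD4_Tcm) to 1.72 (Macro_Mgl2), and counts without S100a8 and S100a9 by 1.21 in neutrophils.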
